A study of Homo sapiens with 4 samples.

Results

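The Src family kinases are the proteins that UM-164 was made to inhibit, and the genes described here are those of the family with that of CSK, the kinase that restrains it. The list held 9 genes, chosen by name as direct targets of the drug and their regulator: SRC, YES1, FYN, LYN, LCK, FGR, BLK, FRK and CSK. Of these, 8 had a row among the 27694 genes of the deposited expression table, and BLK is not analysed here. RNA-seq was performed on LN229, an established human glioblastoma cell line, after 24 h in 100 nM UM-164 (2 libraries) or in vehicle, which was DMSO (2 libraries). All 4 libraries came from cells grown in DMEM with fetal bovine serum, and the design holds 1 cell line, 1 dose and 1 time point. The labels do not tell whether the replicates were cultured separately, and p-values here reflect only how far the sequenced libraries differ, a spread that could be technical.

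Src family kinases are non-receptor tyrosine kinases, most of which sit on the inner face of the plasma membrane through a lipid on their amino terminus. Each kinase of the family holds an SH3 domain, an SH2 domain and a kinase domain. Each is held shut when a tyrosine of its carboxy-terminal tail is phosphorylated. CSK places that phosphate, and tyrosine phosphatases remove it, after which the kinase phosphorylates its own activation loop and becomes active. SRC, YES1 and FYN are found in most tissues, LYN, LCK, FGR and BLK mainly in blood cells, and FRK, a more distant relative, mainly in epithelial cells. In glioma, SRC and FYN are known to act downstream of growth factor receptors. RNA-seq measured transcript levels, and neither phosphorylation nor kinase activity was part of these data.

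Expression was given as FPKM, the fragments of a gene scaled to its transcript length and to the mapped fragments of the library, so levels of different genes can be set side by side per length. Summed FPKM ran from 281619 to 318802 per library. Depth could not be counted from these values. Ribosomal, 7SL and related RNAs made up 3.38% to 3.74% of the summed FPKM in vehicle and 10.01% to 11.46% in UM-164 libraries, and with protein-coding genes rescaled to one sum in every library the log2 fold changes of SRC and CSK given below moved only from 0.13 to 0.11 and from -0.11 to -0.14. The cells carried transcripts known from glioma lines, with all 5 markers of that list (VIM, CD44, EGFR, NES and FN1) at a mean FPKM of at least 1. Their summed level was 907 to 950.0 FPKM in vehicle and 673 to 762 in UM-164 libraries. VIM was the largest part of this sum, at 623 and 494 FPKM in vehicle and 346 and 426 in UM-164 libraries. NES and EGFR were also lower in both UM-164 libraries, while FN1 and CD44 overlapped between the groups. Of 6 glial markers, 3 reached a mean FPKM of at least 1, and OLIG1, GFAP and AQP4 did not. The 6 together summed to 337 to 357 FPKM in vehicle and 567 to 589 in UM-164 libraries. S100B alone made up most of this sum, at 328 and 305 FPKM in vehicle and 536 and 559 in UM-164 libraries. OLIG1 and OLIG2 were also higher in both UM-164 libraries than in both vehicle libraries. OLIG2 was at 3.51 and 2.24 FPKM in vehicle and 6.09 and 5.89 in UM-164 libraries. SOX2 and GFAP were lower in both UM-164 libraries, and AQP4 was above 0 only in UM-164 replicate 1. SOX2 was at 24.4 and 29.04 FPKM in vehicle and 23.3 and 22.5 in UM-164 libraries. OLIG1 lay within 0.423 to 1.36 FPKM and GFAP within 0.0487 to 0.120, so both separations rest on low values. Separation of the groups was common, whether for glioma line or glial markers or for other genes. Among the 11516 genes tested below, 27.7% were higher in both UM-164 libraries and 25.5% lower. Whether the glial markers differed as a set was not tested. Of 5 epithelial markers, 2 reached a mean FPKM of at least 1. Of the 5 T cell, 5 B cell and 7 myeloid markers, none did.

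The 8 genes lie on 6 chromosomes (GRCh38, GENCODE v29). SRC spans bases 37344685 to 37406050 of chromosome 20, and CSK bases 74782057 to 74803198 of chromosome 15. YES1 spans 721588 to 812546 of chromosome 18, and FYN 111660332 to 111873452 of chromosome 6, where FRK also lies. LCK and FGR lie on chromosome 1, and LYN lies on chromosome 8. All 8 are annotated as protein-coding. None shared exon sequence with another gene on its own strand. The exons of YES1 overlapped a gene on the opposite strand, AP001020.3, over 3.02% of their length. For SRC, CSK, FYN, LCK and FGR no stretch of 50 bases of any transcript recurred in the transcripts of another gene, on either strand. For YES1 the share of such stretches was 6.73%, for FRK 1.68% and for LYN 0.518%. Of the 28 pairs of these 8 genes, 0 shared such a stretch, so that reads of this length could be told apart between members.

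In KEGG pathways of the deposited table, SRC, YES1 and FYN shared the adherens junction pathway. SRC and FYN also shared focal adhesion and axon guidance, 2 pathways of cell attachment and movement. FYN and LCK shared the T cell receptor pathway, where they carry the first signal of the receptor.

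Promoter windows from RefSeq (GRCh38.p14, 250 bases before to 50 bases after an annotated start) were found for 6 of the 8 genes, in 11 windows. SRC and LYN had no entry. The windows printed are that of FYN with the most CpG dinucleotides and those of YES1, CSK and FRK. They span the range from the richest to the poorest in CpG. FYN, YES1 and CSK had a mean FPKM of at least 1 here, and FRK transcripts were near 0. Sequences run 5′ to 3′ on the strand of the gene, and capitals mark CpG dinucleotides.
FYN, chr6:111873022-111873321, minus strand: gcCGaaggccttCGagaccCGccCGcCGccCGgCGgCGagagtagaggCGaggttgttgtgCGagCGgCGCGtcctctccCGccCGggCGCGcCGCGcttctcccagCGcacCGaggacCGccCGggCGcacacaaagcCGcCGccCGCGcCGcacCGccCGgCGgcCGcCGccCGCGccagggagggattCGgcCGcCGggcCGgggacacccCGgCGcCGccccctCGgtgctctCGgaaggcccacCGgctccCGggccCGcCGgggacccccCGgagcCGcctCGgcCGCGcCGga
YES1, chr18:812193-812492, minus strand: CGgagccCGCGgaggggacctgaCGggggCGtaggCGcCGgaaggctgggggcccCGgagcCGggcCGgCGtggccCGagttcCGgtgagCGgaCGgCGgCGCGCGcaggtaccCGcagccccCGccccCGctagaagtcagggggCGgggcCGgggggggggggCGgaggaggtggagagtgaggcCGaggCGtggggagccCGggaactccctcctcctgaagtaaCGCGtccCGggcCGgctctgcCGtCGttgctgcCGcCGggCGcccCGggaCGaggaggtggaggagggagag
CSK, chr15:74788294-74788593, plus strand: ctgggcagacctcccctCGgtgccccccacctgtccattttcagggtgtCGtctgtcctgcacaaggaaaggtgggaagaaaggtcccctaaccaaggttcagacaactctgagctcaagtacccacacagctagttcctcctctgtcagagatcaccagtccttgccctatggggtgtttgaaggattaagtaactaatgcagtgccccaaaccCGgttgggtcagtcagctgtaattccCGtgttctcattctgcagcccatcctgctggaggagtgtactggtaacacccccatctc
FRK, chr6:116060842-116061141, minus strand: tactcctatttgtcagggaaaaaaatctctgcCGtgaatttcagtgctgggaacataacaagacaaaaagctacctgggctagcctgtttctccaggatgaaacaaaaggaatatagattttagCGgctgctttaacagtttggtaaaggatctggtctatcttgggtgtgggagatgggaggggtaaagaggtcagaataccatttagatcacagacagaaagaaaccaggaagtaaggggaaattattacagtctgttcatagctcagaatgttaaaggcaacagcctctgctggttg
The FYN window held 55 CpG dinucleotides at a GC content of 82.3%, and the YES1 window held 39 at 78.7%. The CSK window held 4 at 54.3% and the FRK window 2 at 42.3%. The median was 14 CpG dinucleotides over all 35116 windows and 26 over the windows of genes tested here. The start in the CSK window lies 6487 bases inside the gene from its first annotated start in GENCODE v29, so this window does not cover every start of CSK.

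The family in these cells was made up of SRC, YES1 and FYN, with CSK beside them at nearly the level of SRC. SRC, the founding member and the named target of UM-164, had the highest level, at 9.30 and 10.1 FPKM in vehicle and 10.7 and 10.6 FPKM in UM-164 libraries. Its mean of 10.2 FPKM lay above that of 86.8% of genes in the table and of 68.2% of the genes tested. CSK was measured at 9.40 and 8.68 FPKM in vehicle and 8.27 and 8.35 FPKM in UM-164 libraries. The values of SRC and CSK overlapped in the vehicle libraries, whereas both UM-164 libraries had SRC above CSK. YES1, a close relative of SRC, came next, at 5.45 and 5.52 FPKM in vehicle and 5.81 and 4.70 FPKM in UM-164 libraries, and every library of CSK lay above every library of YES1. FYN was measured at 3.34 and 3.81 FPKM in vehicle and 4.23 and 3.68 FPKM in UM-164 libraries, below YES1 in every library.

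The members known mainly from blood cells and epithelium were far lower, with the lowest FYN value 15.9 times the highest value among them. LCK, which starts signaling from the T cell receptor, was listed at 0.210 and 0.0824 FPKM in vehicle and 0.0866 and 0.140 FPKM in UM-164 libraries. FGR, a kinase of myeloid cells, was listed at 0.0521 and 0.0139 FPKM in vehicle and 0.0335 and 0.0548 FPKM in UM-164 libraries. LYN, which works in B cells and myeloid cells, was listed at 0.0356 and 0.0349 FPKM in vehicle and 0.0237 and 0.0310 FPKM in UM-164 libraries. FRK, the epithelial member, was listed at 0.0194 and 0.0106 FPKM in vehicle and 0.0465 and 0.0141 FPKM in UM-164 libraries. The ranges of FGR, LYN and FRK overlapped one another, whereas every library of LCK lay above every library of these 3 genes. All 4 genes had a mean FPKM under 1 and were left out of the test.

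**Figure D1:**
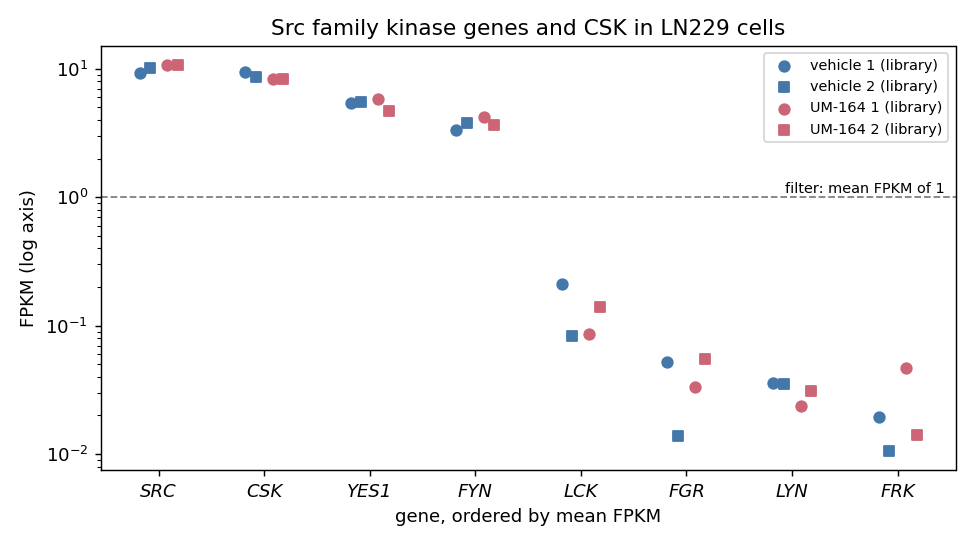
FPKM of the 8 measured genes (log axis) in each of the 2 vehicle (blue) and 2 UM-164 (red) libraries, with circles for replicate 1 and squares for replicate 2 and the dashed line at the filter of 1. SRC, CSK, YES1 and FYN lie between 3.34 and 10.7 FPKM, and LCK, FGR, LYN and FRK at or below 0.210.

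Markers of the blood cells that carry LCK, FGR and LYN were themselves low. T cell markers summed to 0.189 to 0.269 FPKM in vehicle and 0.160 to 0.363 in UM-164 libraries. B cell markers summed to at most 0.125 FPKM in any library. Myeloid markers summed to 0.250 to 0.402 FPKM in vehicle and 0.586 to 0.764 in UM-164 libraries. LYZ, the lysozyme gene, was listed at 0 and 0.119 FPKM in vehicle and 0.243 and 0.490 in UM-164 libraries. CD14, CSF1R, AIF1 and SPI1 were highest in UM-164 replicate 1, ITGAM in vehicle replicate 1 and CX3CR1 in vehicle replicate 2. FGR overlapped between the groups and LYN was not higher in UM-164 libraries. The part of the myeloid difference in their levels was not tested. The epithelial markers were not uniformly low, with sums of 28.99 to 30.6 FPKM in vehicle and 27.2 to 40.7 in UM-164 libraries. KRT18 and KRT8, keratins of simple epithelium, lay within 20.2 to 33.04 and 4.96 to 7.34 FPKM, while EPCAM, CDH1 and KRT5 stayed under 0.26 FPKM in every library. KRT18, KRT8 and CDH1 had their highest value in UM-164 replicate 1, EPCAM in vehicle replicate 2 and KRT5 in vehicle replicate 1. KRT8 and CDH1 were higher in both UM-164 libraries than in both vehicle libraries, and KRT5 was lower in both. KRT18 and EPCAM overlapped between the groups. Of all tested genes, 27.7% were higher in both UM-164 libraries and 25.5% lower. FRK was also highest in UM-164 replicate 1, at only 0.0465 FPKM, and the part of these markers in its level was not tested.

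Together the 8 genes summed to 27.8 and 28.2 FPKM in vehicle and 29.2 and 27.6 FPKM in UM-164 libraries. The groups overlapped, and the means of 28.0 ± 0.289 and 28.4 ± 1.10 FPKM (SD, n = 2 each) differed by less than the spread of the UM-164 libraries. Leaving out CSK, SRC made up 50.5% to 55.2% of the summed FPKM of the family, YES1 24.4% to 29.6% and FYN 18.1% to 20.2%. The share of SRC was 51.0% ± 0.702 in vehicle and 53.1% ± 2.97 in UM-164 libraries (SD, n = 2 each), and that of YES1 28.9% ± 0.957 and 26.1% ± 2.42 (SD, n = 2 each). The groups overlapped for SRC and FYN, and for YES1 the UM-164 libraries were both below the vehicle libraries. The 4 low members added up to 0.142 to 0.317 FPKM.

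To ask whether UM-164 changed the transcripts of its own targets, log2(FPKM + 0.5) was compared between the groups with limma over all 11516 genes whose mean FPKM reached 1, and p-values were adjusted over all of them by the Benjamini-Hochberg method. None of the 4 members tested was called at an adjusted p under 0.05, and none had an unadjusted p under 0.05 from limma, where 1.31% of all tested genes were called (0.452% higher and 0.86% lower, and 0.764% in either direction when the size of the log2 change also had to reach 1) and 20.1% had an unadjusted p under 0.05. All fold changes below are differences of log2(FPKM + 0.5), a scale that shrinks the change of weakly expressed genes. Of all tested genes 151 were called, against 5 without vehicle replicate 1, 6 without vehicle replicate 2 and 86 without UM-164 replicate 2, and no member was called in any of these fits. For groups of 2 and 2 libraries an exact permutation test (two-sided) cannot give a p below 0.33, so no single value can pass by it.

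SRC was slightly higher in both UM-164 libraries than in both vehicle libraries, at 9.68 ± 0.539 FPKM in vehicle and 10.7 ± 0.0161 FPKM in UM-164-treated cells (SD, n = 2 each). Its log2 fold change was 0.13 (limma, standard error, SE, 0.10, adjusted p = 0.515). The 95% interval ran from -0.13 to 0.39, or from 0.916 to 1.31 as a fold. Both UM-164 libraries lay above both vehicle libraries in 27.7% of all tested genes. FYN, which shares the work of SRC at focal adhesions, had a log2 fold change of 0.13 (limma, SE 0.14, adjusted p = 0.647), and its groups overlapped. Its 95% interval ran from -0.23 to 0.49. YES1 also overlapped between the groups, since the UM-164 libraries held both its highest and its lowest value. Its log2 fold change was -0.06 (limma, SE 0.14, adjusted p = 0.837), with a 95% interval from -0.42 to 0.29. It turned to 0.08 without UM-164 replicate 2, whose YES1 level was the lowest of the 4.

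CSK was lower in both UM-164 libraries than in both vehicle libraries, at 9.04 ± 0.505 FPKM in vehicle and 8.31 ± 0.0558 FPKM in UM-164-treated cells (SD, n = 2 each). Its log2 fold change was -0.11 (limma, SE 0.10, adjusted p = 0.580), with a 95% interval from -0.38 to 0.15, or from 0.769 to 1.11 as a fold. A lower value in both UM-164 libraries than in either vehicle library was seen in 25.5% of all tested genes. For both SRC and CSK the vehicle libraries were farther apart than the UM-164 libraries, and vehicle replicate 2 was the nearer to the UM-164 values. Without vehicle replicate 1 the log2 fold change was 0.08 for SRC and -0.06 for CSK, and without vehicle replicate 2 it was 0.19 and -0.17. FYN likewise had 0.05 without vehicle replicate 1, 0.04 without UM-164 replicate 1, 0.21 without vehicle replicate 2 and 0.22 without UM-164 replicate 2. None of these values passed.

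**Figure D2:**
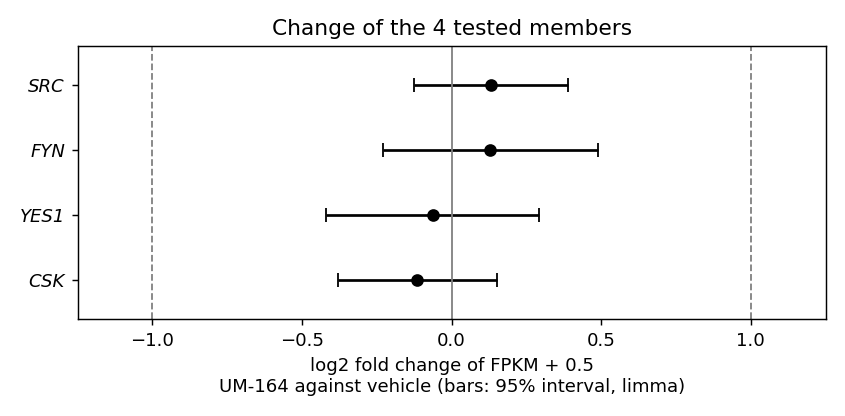
Log2 fold change of FPKM + 0.5 (UM-164 against vehicle, 2 libraries each) of the 4 tested genes, with the 95% interval from limma as bars and dashed lines at a log2 fold change of 1 in either direction. All 4 intervals hold 0 and lie between -0.42 and 0.49.

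The 4 intervals bound what these libraries leave room for. Each held 0, and each ended well inside a log2 fold change of 1 in either direction, which is the size the study required of a changed gene. A change of FYN to 1.40-fold or of YES1 to 0.748-fold lay at the edge of its interval. At levels within 2-fold of SRC, 3787 genes were tested and 49 were called, and the smallest log2 fold change called among them was 0.75 in size, so changes of the size seen in SRC or CSK were not detectable as calls here. Of the low members, LYN was lower in both UM-164 libraries than in both vehicle libraries, as were 25.5% of all tested genes. LCK, FGR and FRK overlapped between the groups. A fit without the filter gave these 4 genes log2 fold changes from -0.07 to 0.04, with adjusted p values of 0.759 to 0.853 from limma, at FPKM values that lie below the 0.5 added to them.

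SRC was higher and CSK lower in both UM-164 libraries, which fixes the direction of their ratio, and the ratio is given as a description. The ratio of FPKM was 0.990 and 1.16 in vehicle and 1.29 and 1.27 in UM-164 libraries. It was higher in both UM-164 libraries, at 1.28 ± 0.0105 against 1.07 ± 0.120 (SD, n = 2 each), a difference of 0.208. Without vehicle replicate 1 the difference was 0.123, and without vehicle replicate 2 it was 0.292. The ratio of SRC to YES1 was 1.71 and 1.82 in vehicle and 1.83 and 2.26 in UM-164 libraries. For the summed family without CSK, the ratio to CSK was 1.96 and 2.25 in vehicle and 2.53 and 2.31 in UM-164 libraries.

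**Figure D3:**
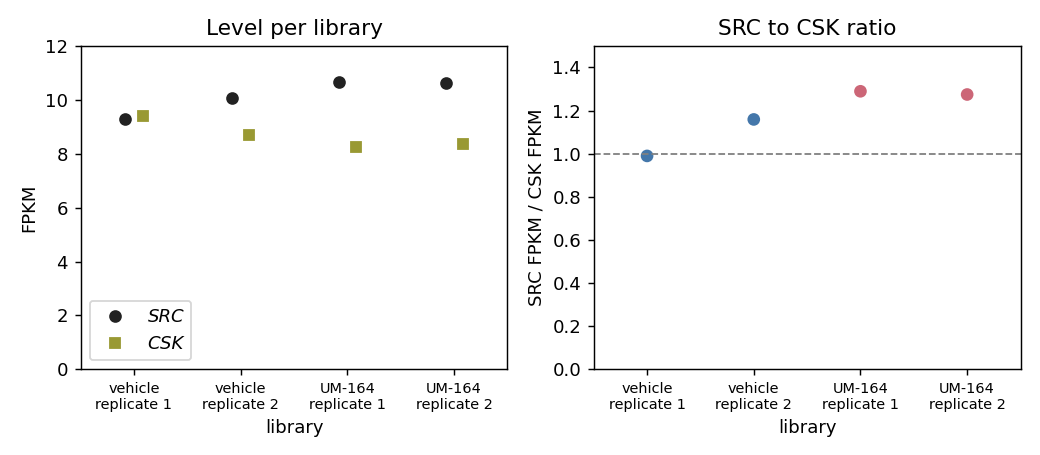
Left, FPKM of SRC (circles) and CSK (squares) in each library. Right, the ratio of SRC to CSK in each vehicle (blue) and UM-164 (red) library, with a dashed line at 1. The ratio runs from 0.990 in vehicle replicate 1 to 1.29 in UM-164 replicate 1, and the levels of both genes stay between 8.27 and 10.7 FPKM.

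The genes whose pattern over the 4 libraries was most like that of SRC were sought among the 3787 tested genes with a mean FPKM within 2-fold of it. Likeness was the distance between log2(FPKM + 0.5) values centred on their mean. SKI, ZFR and REEP3 were nearest, at distances of 0.0169, 0.0193 and 0.0274. None of the 3 was called, with log2 fold changes of 0.14, 0.15 and 0.12. A total of 156 genes lay within a distance of 0.1, so over 4 libraries this pattern is shared by many genes.

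Genes that regulate or surround the family were described by lists chosen with earlier results of these data known. Of 19 genes that recruit CSK, remove phosphate from the kinases or mark them for degradation, 9 were tested, and none was called in either direction. Their median log2 fold change was 0.01, beside 0.01 over all tested genes, and 1 had an unadjusted p under 0.05 from limma. PTPN1, PTPRA and PTPN11 had the highest levels. PTPN1, a phosphatase known to act on the SRC tail, was measured at 33.9 and 34.8 FPKM in vehicle and 28.4 and 29.6 FPKM in UM-164 libraries (limma, log2 fold change -0.24, adjusted p = 0.216). PTPRA, a receptor phosphatase that opens SRC, was measured at 20.8 and 22.8 FPKM in vehicle and 23.0 and 25.9 FPKM in UM-164 libraries (limma, log2 fold change 0.16, adjusted p = 0.454). PTPN11, the phosphatase SHP2, had a log2 fold change of 0.13 (limma adjusted p = 0.562). PTPRA and PTPN1 were each at a higher level than any member of the family.

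Of 14 genes for the lipid modification, trafficking and folding of Src family kinases, 13 were tested and none was called in either direction, with 2 at an unadjusted p under 0.05 from limma and a median log2 fold change of -0.07. The chaperone genes HSP90AB1 and HSP90AA1, whose products are chaperones of many kinases, had the highest levels of the list. HSP90AB1 lay within 291 to 344 FPKM (limma, log2 fold change -0.18, adjusted p = 0.293), and HSP90AA1 within 78.7 to 94.1 FPKM (limma, log2 fold change -0.20, adjusted p = 0.261). LYPLA2, which removes palmitate from proteins, had a log2 fold change of 0.05 (limma adjusted p = 0.890).

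Of 23 other non-receptor tyrosine kinases, 6 were tested and none was called, with 2 at an unadjusted p under 0.05 from limma and a median log2 fold change of -0.07. ABL1, a kinase related to SRC in its catalytic domain, was the most abundant, at 16.86 and 17.99 FPKM in vehicle and 14.3 and 14.1 FPKM in UM-164 libraries (limma, log2 fold change -0.28, adjusted p = 0.195). TYK2 and JAK1, kinases of cytokine receptors, had log2 fold changes of -0.07 and 0.10 (limma adjusted p = 0.741 and 0.761). ABL2, the closest relative of ABL1, was chosen after its values were seen, as the lowest of the list at a log2 fold change of -0.70 (limma adjusted p = 0.109). It was measured at 2.78 and 3.44 FPKM in vehicle and 1.77 and 1.67 FPKM in UM-164 libraries, and its groups did not overlap. A lower value in both UM-164 libraries than in either vehicle library was seen in 25.5% of all tested genes.

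Of 20 substrates and adaptors of SRC, 16 were tested and none was called. Of the 16, 8 had an unadjusted p under 0.05 from limma, against 20.1% of all tested genes. NEDD9 was the only one of these 8 above 0, at a log2 fold change of 0.44 (limma adjusted p = 0.242). This list too was chosen with earlier results of these data known, so the comparison is not a test of it. The median log2 fold change of the 16 was -0.12, with 11 values below 0 and 5 above. SHC1, an adaptor of receptor tyrosine kinases, was the most abundant and had a log2 fold change of -0.01 (limma adjusted p = 0.967). CAV1, a caveolin and a known SRC substrate, was measured at 59.7 and 99.9 FPKM in vehicle and 48.1 and 47.7 FPKM in UM-164 libraries (limma, log2 fold change -0.68, adjusted p = 0.221). TNS3, a tensin of focal adhesions, was measured at 44.3 and 50.8 FPKM in vehicle and 35.83 and 35.95 FPKM in UM-164 libraries (limma, log2 fold change -0.40, adjusted p = 0.130). Of 4 genes for p38 MAP kinases, the other named target of UM-164, 3 were tested and none was called, and none had an unadjusted p under 0.05 from limma. MAPK11, MAPK14 and MAPK12 had log2 fold changes of -0.22, 0.49 and -0.20. MAPK14 was at 2.99 FPKM in vehicle replicate 1 and between 6.31 and 7.02 FPKM in the other libraries.

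**Figure D4:**
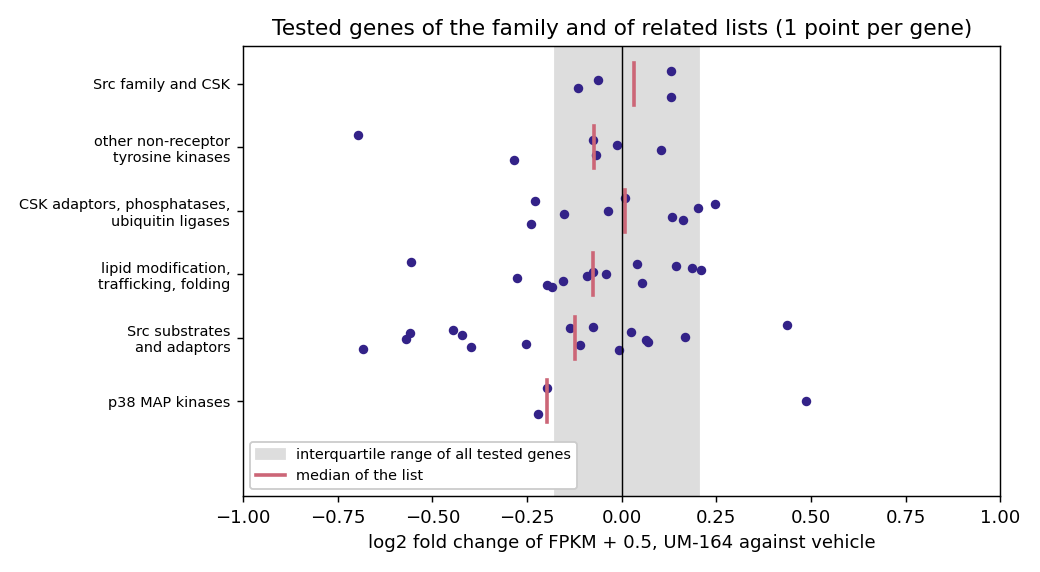
Log2 fold change of FPKM + 0.5 (UM-164 against vehicle) of each tested gene of the family and of 5 related lists, 1 point per gene, with the median of each list in red and the interquartile range of all tested genes in grey, from -0.17 to 0.20. The 4 members of the family lie inside the grey band. The substrates and adaptors of SRC run from -0.68 to 0.44 with a median of -0.12.

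Across the 6 members with a promoter window, which leave out SRC and LYN, the CpG content of the windows did not follow the transcript level alone. The richest windows belonged to FYN and YES1, both transcribed here, at 55 and 39 CpG dinucleotides. FGR, at a mean of 0.0386 FPKM, had a window with 18 and another with 4, and the windows of LCK, at 0.130 FPKM, had 10 and 4. FYN had further windows with 26, 8 and 2, and the starts in those with 8 and 2 lie 113535 and 114371 bases inside the gene. The starts in the second windows of FGR and LCK lie 8680 and 22882 bases inside. CSK, at 8.67 FPKM, had only the printed window with 4. Its start lies 6487 bases inside the gene, so the CpG content at the first annotated start of CSK is not part of this comparison. The hexamer GGGCGG, a GC box that contains a CpG itself, was counted on both strands. It occurred 8 times in the richest FYN window, 3 times in that of YES1 and 3 times in the first FGR window. No window of CSK, LCK or FRK held it. It was present in 45.0% of all windows and in 68.4% of the windows of genes tested here. The letters TATAAA, counted on both strands, were in none of the 11 windows. They were in 11.5% of all windows and in 5.67% of the windows of tested genes. CCAAT, counted likewise, occurred once in 1 FYN window and once in 1 FGR window. It was in 34.6% of all windows and in 35.3% of the windows of tested genes. These are letters in a window and not evidence of a bound factor, and which start LN229 cells use was not measured.

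**Figure D5:**
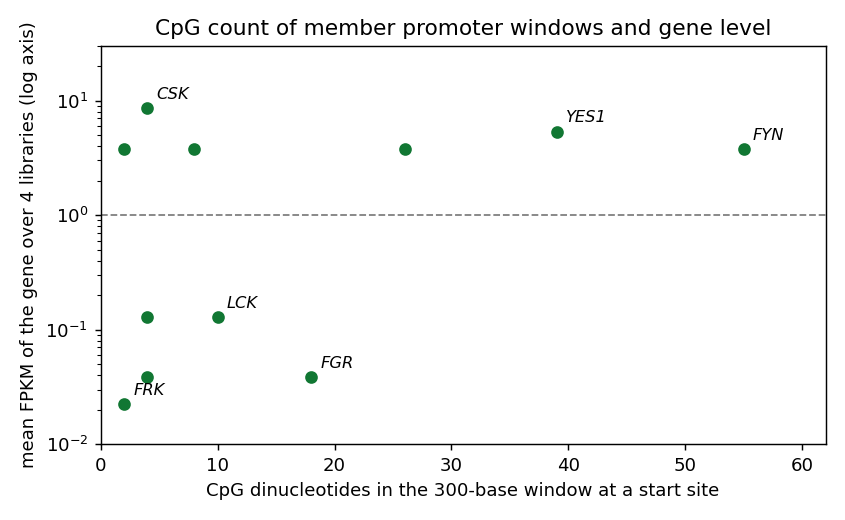
Number of CpG dinucleotides in each of the 11 RefSeq promoter windows of 300 bases against the mean FPKM of the gene over the 4 libraries (log axis), with genes named at their richest window. FYN and YES1 lie to the right with 55 and 39, and CSK has 4 at a mean of 8.67 FPKM. The start in the CSK window lies 6487 bases inside the gene, and SRC and LYN have no window.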

How the data were processed

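RNA of LN229 cells given vehicle or UM-164 was sequenced in 2 libraries per group. Per the labels, reads were trimmed with cutadapt 1.9 and checked with FastQC, the genome was GRCh38 and HISAT2 was the aligner. The authors deposited FPKM per gene and library. How FPKM was computed is not stated. The deposited fold changes, p-values and q-values were not used. FPKM are not counts, so a count test was not run, and log2(FPKM + 0.5) of the 11516 genes whose mean FPKM reached 1 was tested by limma 3.58.1 (R 4.3.3) using a variance trend and Benjamini-Hochberg adjustment at 0.05. Low values gave a step between libraries that differed by at most 1.11 times, and 20.7% of multiples were whole within 0.05 (10% by chance), which did not allow whole reads to be recovered. The code of the test was run on values simulated from the fitted model, which cannot check whether that model holds for these libraries. Members and lists were chosen with earlier results of these data known. All members were named, with the 3 most abundant genes and any called gene of each other list. ABL2, NEDD9 and single marker genes were named after their values were seen. Alternatives were other pseudocounts (0.1, 1), filters (none, 5), scalings and variance models, each library left out and a replicate block. Tables were made in Python 3.11.15 (pandas 2.3.3, numpy 2.4.6, scipy 1.17.1).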

Additional observations from a re-analysis of the deposited data

How the results depend on the processing

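No member was called under any of the 13 alternatives, in which log2 fold changes ran from 0.08 to 0.19 for SRC (adjusted p from 0.345 to 0.829 from limma), from -0.17 to -0.06 for CSK (0.396 to 0.855), from 0.04 to 0.22 for FYN (0.475 to 0.962; not tested at a mean FPKM of at least 5) and from -0.20 to 0.08 for YES1 (0.726 to 0.925). YES1 reversed only without UM-164 replicate 2, at 0.077. The difference in summed FPKM of the members, 0.371, reversed to -0.069 with protein-coding genes rescaled to one sum and ran from -0.406 to 1.15 with 1 library left out. The difference in the SRC to CSK ratio, 0.208, cannot move under a scaling that multiplies all genes of a library alike, was 0.218 with quantile normalization and ran from 0.123 to 0.292 with 1 library left out. No gene of the 5 related lists was called under any alternative. The count of 151 called genes became 4 with no filter on low values, 50 with no trend of the variance and 5 to 118 with 1 library left out, where a lone library takes its variance from the other group; the cause was not tested. The share of higher calls was 34.4%, and 36.6%, 32.7% and 29.6% by median-ratio scaling, quantile normalization and protein-coding rescaling. The replicate block called 164 genes and no member. The numbers did not pair the libraries, since replicate differences correlated at -0.0556 over the 11516 genes. FPKM holds no counts, so no interval for counting error could be given, and the values of LCK, FGR, LYN and FRK cannot be set against a detection limit.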
